A study of Mus musculus with 10 samples.

Results

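The NADPH oxidase subunit genes measured here were Nox1, Cybb, Cyba, Ncf1, Ncf4, Rac1 and Rac2. They were chosen by name, through their Ensembl identifiers, and they make up 7 of the 43432 mouse genes in the count table. All 7 passed the filter on low counts. RNA came from RAW264.7 cells, an established mouse macrophage line from a virally transformed tumor, grown under 5 conditions with 2 libraries each. The control received the solvent alone (0.5% DMSO) and no LPS. The second condition, DMSO + LPS, received solvent and lipopolysaccharide (LPS), a bacterial outer membrane component, at 1 µg/mL. The other 3 conditions received **1**, a monounsaturated fatty acid from a marine cyanobacterial mat (hexadecenoic acid with its double bond at 7(E) and a keto group at position 9), at 32, 10 or 3.2 µM together with the same LPS. No library received **1** without LPS, so every value for **1** is a value in LPS-treated cells. Pretreatment lasted 1 h, and RNA was collected after 12 h. All 10 libraries came from 1 cell line, and nothing in the labels says whether the replicates of a condition were separate cultures, so each p-value measures the spread between these libraries, which may be technical.

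Phagocytes make superoxide with an enzyme that is assembled on demand. The catalytic chain gp91phox (NOX2, encoded by Cybb) sits in the membrane with p22phox (Cyba), its partner, and passes electrons from NADPH to oxygen. Cytosolic proteins, among them p47phox (Ncf1) and p40phox (Ncf4), move to the membrane when the cell is stimulated, and a GTP-bound Rac protein completes the active enzyme. In macrophages and neutrophils the resulting oxidants serve the killing of ingested microbes and signaling. NOX1 (Nox1) is a second catalytic chain, best known from colon epithelium and smooth muscle, that also pairs with p22phox and is switched on by the organizer NOXO1 and the activator NOXA1.

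Macrophage markers were abundant, with 599 to 723 CPM (counts scaled to the library total) of Cd68, 121 to 264 of Adgre1 and 805 to 2310 of Csf1r, the receptor of macrophage colony-stimulating factor. Mrc1, a mannose receptor, was scarce at 1.25 to 2.58 CPM. No T or B cell marker exceeded 15 counts in any library, and no endothelial marker exceeded 0.774 CPM. Library totals ranged from 45966803 to 58976377 counts. The share of counts on ribosomal RNA was 2.71% for replicate 2 of the 32 µM condition and no more than 0.316% elsewhere. Replicate 1 at 10 µM stood apart in content. It held 59 genes with at least 15 counts that had at most 2 counts in every other library, led by the keratins Krt14 (183 counts), Krt5 (127 counts) and Krt4 (105 counts). All 4 epithelial markers (Epcam, Krt8, Krt18, Cdh1) were also highest there, with 1039 counts of Krt8, followed by replicate 1 at 3.2 µM with 153. In each of the other 8 libraries Krt8 had at most 2 counts. Differences of the members from DMSO + LPS are given below with and without these libraries, and the part of that RNA in the results was not tested.

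The genes lie on 4 chromosomes of GRCm38 (GENCODE M21 annotation). Nox1 spans X:134086421-134221956 and Cybb X:9435252-9487771, both on the minus strand. Cyba lies at 8:122424776-122432930, Ncf1 at 5:134220053-134229625 and Rac1 at 5:143503634-143528036, each on the minus strand. Chromosome 15 holds Rac2 at 78559167-78572783 on the minus strand and Ncf4 at 78244801-78262580 on the plus strand. All are protein-coding genes, and each count covers reads assigned to the gene as a whole. The exons of 3 of them overlap exons of a gene on the opposite strand. Daglb shares 2309 nt, or 51.36%, of the merged exons of Rac1. Cstf2 shares 399 nt (12.07%) with Nox1, and Gtf2ird2 shares 408 nt (11.14%) with Ncf1. Whether the counting used the strand of the reads is not given in the sources used here. Transcripts of different members shared no stretch longer than 29 nt (Rac1 with Rac2), against reads of 150 nt.

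The 250 bases before the RefSeq start are shown for the 2 catalytic genes, whose RNA changed most. They are also shown for Ncf1, whose upstream sequence shares a kind of motif with that of Cybb. The sequences are RefSeq's on GRCm38.p6, read 5′ to 3′ on the strand of the gene and ending at the base before the start. For Nox1 (base 134111854) and Cybb (base 9469324) this start lies inside the GENCODE span given above. One transcript of each begins at it, while 2 of the 5 Nox1 transcripts begin up to 110102 nt upstream and 1 of the 5 Cybb transcripts begins 18447 nt upstream. Capitals mark every match, on either strand, to 6 motifs: PU.1 (GAGGAA), NF-κB (GGGA, any base, TTTCC), AP-1 (TGANTCA), the interferon-γ-activated site GAS (TTCNNNGAA), the interferon-stimulated response element ISRE (GAAA, any 2 bases, GAAA) and the antioxidant response element ARE (TGACNNNGC).
Nox1, X:134111855-134112104, minus strand: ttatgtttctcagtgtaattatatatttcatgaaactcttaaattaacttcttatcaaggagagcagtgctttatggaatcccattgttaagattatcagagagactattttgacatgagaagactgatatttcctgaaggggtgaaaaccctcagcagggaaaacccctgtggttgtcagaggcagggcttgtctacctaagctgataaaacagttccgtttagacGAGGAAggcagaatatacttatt
Cybb, X:9469325-9469574, minus strand: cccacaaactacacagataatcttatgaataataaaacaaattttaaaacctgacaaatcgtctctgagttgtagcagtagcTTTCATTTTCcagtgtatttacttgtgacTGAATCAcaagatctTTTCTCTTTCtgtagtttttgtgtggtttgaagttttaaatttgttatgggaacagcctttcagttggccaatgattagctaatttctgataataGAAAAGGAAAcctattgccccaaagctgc
Ncf1, 5:134229626-134229875, minus strand: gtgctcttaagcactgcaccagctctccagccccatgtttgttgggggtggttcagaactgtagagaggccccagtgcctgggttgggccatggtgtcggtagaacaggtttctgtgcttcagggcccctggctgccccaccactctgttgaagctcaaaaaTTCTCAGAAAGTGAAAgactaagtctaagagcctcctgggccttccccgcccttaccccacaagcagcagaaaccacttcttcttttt

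The Cybb sequence held 3 ISRE matches, which begin 168, 124 and 29 bases before the start (TTTCATTTTC and TTTCTCTTTC, both reverse complements, and GAAAAGGAAA), and 1 AP-1 match (TGAATCA) 139 bases before it. In the Ncf1 sequence a GAS match (TTCTCAGAA) beginning 88 bases before the start overlapped an ISRE match (GAAAGTGAAA) beginning at 82 bases. The Nox1 sequence held 1 PU.1 match, 23 bases before the start, and the Cyba sequence held none of the 6 motifs. Among 32851 mouse promoters of the same length, an ISRE match occurred in 2.98%, AP-1 in 6.75%, GAS in 7.02%, PU.1 in 23.3%, ARE in 10.2% and NF-κB in 0.356%. These matches describe letters and not bound sites. RefSeq promoter entries for Ncf4, Rac1 and Rac2 were not used here.

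**Figure D1:**
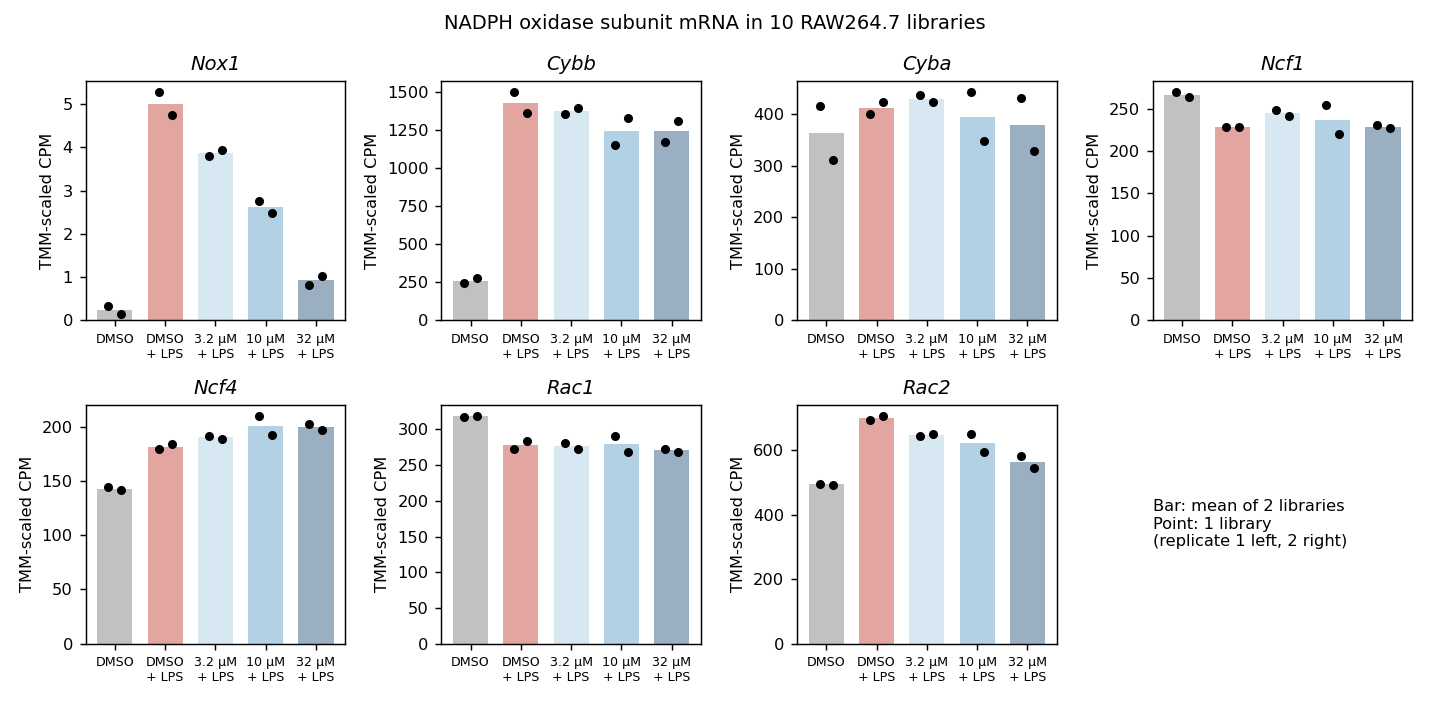
Level of each subunit's RNA in the 10 libraries, in CPM (counts scaled to the library total by edgeR's TMM method), with bars for the mean of 2 libraries and points for single libraries, on linear axes that start at 0. Nox1 shows a stepwise order of doses from 5.01 CPM in DMSO + LPS to 0.917 CPM at 32 µM, Cybb lies between 1148 and 1496 CPM wherever LPS was given, and the replicates of Cyba lie far apart in 3 of the 5 conditions.

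Nox1, the non-phagocyte catalytic chain, was the member with the largest response to LPS and to **1**. Its counts were 19 and 8 without LPS and 302 and 223 in DMSO + LPS, and among the doses 176 and 197 (3.2 µM), 128 and 112 (10 µM), and 40 and 46 (32 µM). In CPM these were 0.323 and 0.141 without LPS and 5.27 and 4.75 in DMSO + LPS, and among the doses 3.80 and 3.93 (3.2 µM), 2.75 and 2.48 (10 µM), and 0.817 and 1.02 (32 µM). No 2 conditions overlapped, and the order of the conditions was DMSO, 32 µM, 10 µM, 3.2 µM and DMSO + LPS. Genes were called when they changed at least 1.5-fold with a Benjamini-Hochberg adjusted p below 0.05 in edgeR's quasi-likelihood test over all 14172 genes tested. Nox1 rose 21.3-fold with LPS (log2 fold change 4.41, SE 0.31, adjusted p = 8.14e-06), a fold that rests on the 19 and 8 counts of the DMSO libraries. Leaving out replicate 1 of DMSO raised this log2 value to 5.13 (adjusted p = 1.14e-05), while leaving out replicate 2 lowered it to 3.95 (adjusted p = 2.23e-05). Compared with DMSO + LPS, at 32 µM it fell 5.46-fold (log2 fold change −2.45, SE 0.27, adjusted p = 7.81e-04), the 39th lowest log2 fold change of the 14172 genes. In bulk RNA such a difference cannot be told apart from a change in the share of cells that carry the transcript. Macrophage markers moved in the same comparisons. Of 9 (Adgre1, Cd68, Csf1r, Itgam, Lyz2, Cd14, Ptprc, Fcgr1 and Mrc1), 4 were called lower and 0 higher at 32 µM (2.91% and 1.27% of all genes), namely Fcgr1 (log2 fold change −1.70), Mrc1 (−0.93), Itgam (−0.67) and Lyz2 (−0.61). With LPS 5 were called higher and 2 lower (14.6% and 13.6% of all genes), and Cd68 and Ptprc were called in neither comparison. The CPM of the 9 summed to 10691 and 11546 without LPS, 9817 and 9894 in DMSO + LPS, and 7552 and 7897 at 32 µM. Their part in the Nox1 values was not tested. Nox1 at 32 µM with LPS was still 3.90-fold above DMSO without LPS (log2 fold change 1.96, adjusted p = 0.00115), and that log2 fold change was 2.68 without replicate 1 of DMSO and 1.5 without replicate 2 (adjusted p = 2.79e-04 and 0.00226).

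The lower doses of **1** gave smaller differences of Nox1. At 10 µM the log2 fold change against DMSO + LPS was −0.94 (95% interval −1.51 to −0.37), with an unadjusted p of 0.00551 and an adjusted p of 0.125 in edgeR's quasi-likelihood test, so that the gene was not called. It was called at that dose by DESeq2 (adjusted p = 0.00696), by edgeR's likelihood ratio test (0.00331), without the count filter (0.0448) and with the short-transcript score described below in the fit (0.00341). Without replicate 1 at 10 µM, the library with the keratin transcripts, the log2 fold change was −1.02 and the adjusted p was 0.195. At 3.2 µM the log2 fold change was −0.38 (95% interval −0.94 to 0.19, adjusted p = 0.999). Between neighboring doses, Nox1 was 2.85-fold lower at 32 than at 10 µM (adjusted p = 0.0250), a call that was lost without either 32 µM replicate (adjusted p = 0.162 and 0.0952), without replicate 1 at 10 µM (0.0687) and in a fit of those 4 libraries alone (0.205). The difference between 10 and 3.2 µM was −0.56 (95% interval −1.14 to 0.010, adjusted p = 0.612). Of the LPS-dependent rise in CPM, 14.3% was left at 32 µM, 49.8% at 10 µM and 76.0% at 3.2 µM.

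The opposite-strand neighbor Cstf2, an RNA 3′ end processing factor whose exons overlap those of Nox1, held between 3618 and 5107 counts in every library. Its log2 fold change was 0.053 with LPS (adjusted p = 0.422) and −0.12 at 32 µM (adjusted p = 0.208), neither of which passed the test. The same-strand gene Xkrx, inside the annotated span of Nox1 with no shared exon, had between 2 and 11 counts.

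Cybb, the phagocyte catalytic chain, was far more abundant and was called for LPS but for no dose of **1**. It held 14250 and 15540 counts without LPS and 85679 and 63939 in DMSO + LPS, and among the doses 62910 and 69940 (3.2 µM), 53423 and 60141 (10 µM), and 57295 and 59261 (32 µM). The scaled levels were 242 and 274 CPM without LPS and 1496 and 1362 in DMSO + LPS, and among the doses 1357 and 1396 (3.2 µM), 1148 and 1331 (10 µM), and 1171 and 1311 (32 µM). Every library with LPS lay above both DMSO libraries, the libraries at 32 and 10 µM overlapped each other below both DMSO + LPS libraries, and those at 3.2 µM overlapped DMSO + LPS. Cybb rose 5.54-fold with LPS (log2 fold change 2.47, SE 0.10, adjusted p = 3.88e-07). Against DMSO + LPS its log2 fold change was −0.20 at 32 µM (95% interval −0.42 to 0.016, adjusted p = 0.263), −0.21 at 10 µM (−0.43 to 0.015, adjusted p = 0.459) and −0.054 at 3.2 µM (−0.27 to 0.17, adjusted p = 0.999). No interval reached the 1.5-fold cutoff, and 83.9% of the LPS-dependent rise was left at 32 µM. Cybb at 32 µM with LPS was 4.81-fold above DMSO (adjusted p = 7.45e-07).

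Per exon length, Nox1 stayed a minor transcript beside Cybb throughout. As a share of the summed RPKM (CPM per kilobase of merged exons) of both catalytic genes, Nox1 held 0.234% and 0.0903% without LPS and 0.615% and 0.609% in DMSO + LPS, and among the doses 0.489% and 0.492% (3.2 µM), 0.419% and 0.326% (10 µM), and 0.123% and 0.136% (32 µM). The shares at 32 µM lay between those of the DMSO libraries, which rest on 19 and 8 counts of Nox1. Both genes were still higher at 32 µM with LPS than in DMSO (log2 fold change 1.96 for Nox1 and 2.27 for Cybb). No test was made on the shares. An exact permutation of 2 libraries against 2 cannot give a p below 0.333, and no model was fitted to them.

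Cyba, which encodes the p22phox partner of both catalytic chains, was not called in any of the 7 comparisons. Its levels were 416 and 311 CPM without LPS and 401 and 424 in DMSO + LPS, and among the doses 437 and 423 (3.2 µM), 442 and 348 (10 µM), and 431 and 329 (32 µM). The conditions overlapped, except that both 3.2 µM libraries lay above both DMSO libraries. The log2 fold change was 0.18 with LPS (95% interval −0.22 to 0.59, adjusted p = 0.428) and −0.12 at 32 µM (−0.52 to 0.29, adjusted p = 0.801). A short-transcript score was set as the median, over 482 protein-coding genes with transcripts under 1000 nt, of the log2 CPM relative to the mean of all libraries. Cyba, whose longest transcript is 744 nt, is itself 1 of the 482. Between replicate 1 and replicate 2 the score differed by 0.42 without LPS, −0.11 in DMSO + LPS, and by dose 0.081 (3.2 µM), 0.40 (10 µM) and 0.40 (32 µM). The log2 CPM of Cyba differed by 0.42, −0.082, 0.047, 0.34 and 0.39 in the same order, and that of Cybb, with a longest transcript of 4752 nt, by −0.18, 0.14, −0.041, −0.21 and −0.16. The replicates of Cyba thus differed by nearly the score itself, and those of Cybb in the other direction.

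**Figure D2:**
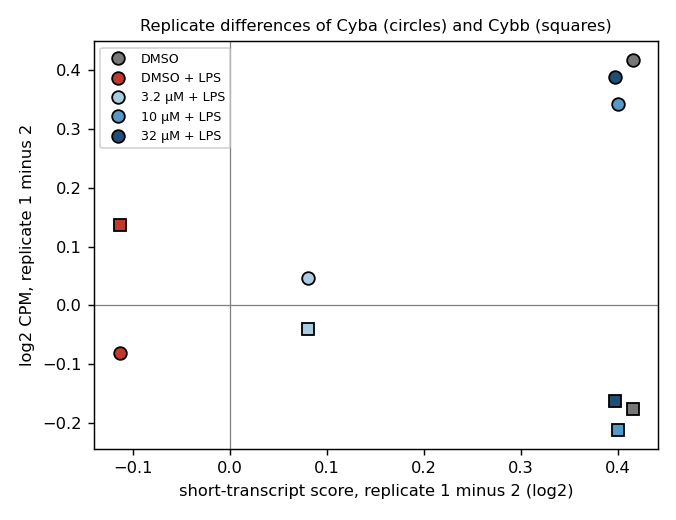
Difference between replicates 1 and 2 in log2 CPM of Cyba (circles) and Cybb (squares) against the difference in the short-transcript score of the same libraries, 1 color per condition. Cyba follows the score from −0.082 to 0.42 and Cybb moves the opposite way, from 0.14 down to −0.21.

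With the score in the fit, the log2 fold change of Cyba was −0.016 with LPS, the opposite sign of the value without it, and Cyba was not called in either. The sign also turned with scaling by library size alone (−0.026), so no direction is given for Cyba. With the score in the fit more members passed the adjusted p of 0.05, and of those added Nox1 at 10 µM alone, given above, passed the 1.5-fold cutoff too. At 32 µM against DMSO + LPS, where 24.6% of all genes passed the adjusted p alone in that fit, the log2 fold change was −0.24 for Cybb (adjusted p = 8.98e-05) and 0.15 for Ncf4 (0.00424), while Rac2, which passed with or without the score, was at −0.30 (3.73e-05). At 10 µM, where 11.4% passed, it was −0.96 for Nox1 (adjusted p = 0.00341) and −0.17 for Cybb (0.00312). Cyba was at −0.14 (adjusted p = 0.00885), Ncf4 at 0.13 (0.0170) and Rac2 at −0.18 (0.00430). That value of Cyba is no separate support, since Cyba is 1 of the 482 genes that set the score. Without the score and with 1 library left out, the log2 fold change of Cyba at 10 µM lay between −0.24 and 0.081. Per exon length, Cybb stood at 0.104 and 0.157 of Cyba without LPS and 0.668 and 0.575 in DMSO + LPS, and among the doses 0.556 and 0.591 (3.2 µM), 0.465 and 0.683 (10 µM), and 0.486 and 0.713 (32 µM). Every LPS library lay above both DMSO libraries, while the doses overlapped DMSO + LPS.

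**Figure D3:**
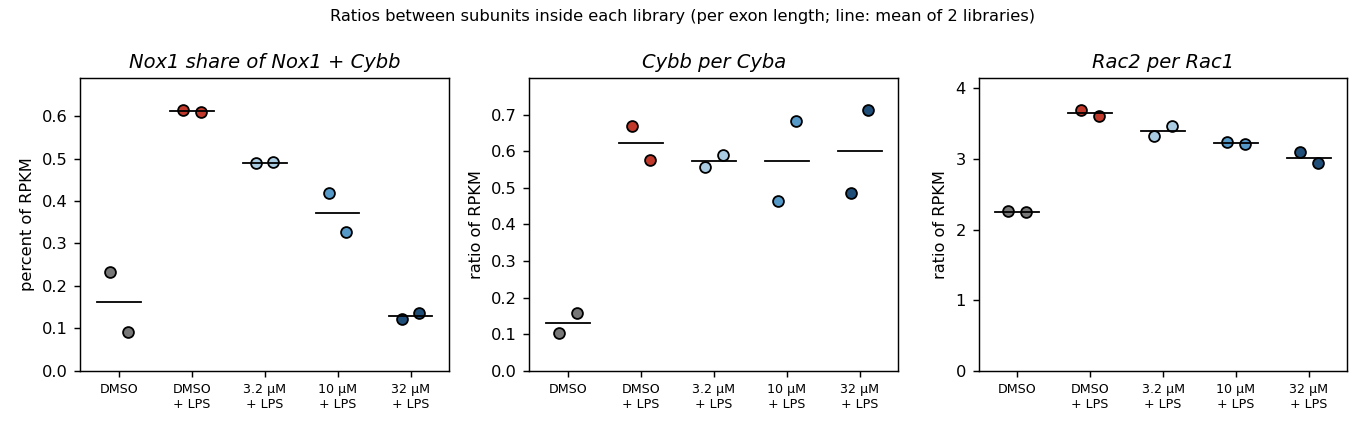
Ratios within each library on the RPKM scale for Nox1 as a percentage of Nox1 plus Cybb, for Cybb per Cyba and for Rac2 per Rac1, with points for libraries, lines for the mean of 2 and axes from 0. The Nox1 share drops from 0.615% and 0.609% in DMSO + LPS to 0.123% and 0.136% at 32 µM, Cybb per Cyba overlaps among the LPS conditions, and Rac2 per Rac1 moves from 3.70 and 3.60 in DMSO + LPS to 3.10 and 2.94 at 32 µM.

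Neither cytosolic subunit gene, Ncf1 or Ncf4, was called in any comparison. Ncf1, which encodes p47phox, had 269 and 264 CPM without LPS and 229 and 228 in DMSO + LPS, and among the doses 248 and 241 (3.2 µM), 254 and 220 (10 µM), and 230 and 227 (32 µM). It was 1.17-fold lower with LPS, and both libraries lay below both of DMSO. This difference had an adjusted p of 0.0226 in edgeR's quasi-likelihood test (log2 fold change −0.22, SE 0.066) but was under the 1.5-fold cutoff, so the gene was not called. Without any 1 of the 4 libraries compared, its adjusted p lay between 0.0624 and 0.0946. The overlapping gene Gtf2ird2, with 344 to 793 counts, was itself lower with LPS (log2 fold change −0.34, adjusted p = 0.0260). Ncf1 at 32 µM had a log2 fold change against DMSO + LPS of 0.0015 (95% interval −0.15 to 0.15). Ncf4, which encodes p40phox, had 144 and 142 CPM without LPS and 180 and 184 in DMSO + LPS, and among the doses 191 and 189 (3.2 µM), 210 and 192 (10 µM), and 203 and 197 (32 µM). It was 1.27-fold higher with LPS (adjusted p = 6.63e-04), again without passing the fold cutoff, and its adjusted p was 0.0555 with scaling by library size alone. All 6 libraries with **1** lay above both DMSO + LPS libraries, yet no dose passed the test without the score in the fit (log2 fold change 0.14 at 32 µM, adjusted p = 0.155, and 0.15 at 10 µM, adjusted p = 0.271). Per exon length the ratio of Ncf1 to Ncf4 was 1.03 in both libraries without LPS and 0.702 and 0.685 in DMSO + LPS, and among the doses 0.715 and 0.703 (3.2 µM), 0.669 and 0.631 (10 µM), and 0.627 and 0.635 (32 µM).

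The Rac GTPases lay on opposite sides of their DMSO level with LPS, and neither was called in any comparison. Rac2, the blood-cell form, had 495 and 494 CPM without LPS and 694 and 707 in DMSO + LPS, and among the doses 645 and 652 (3.2 µM), 652 and 595 (10 µM), and 584 and 545 (32 µM). It was 1.42-fold higher with LPS (log2 fold change 0.50, SE 0.055, adjusted p = 1.25e-04) and 1.24-fold lower at 32 µM than in DMSO + LPS (log2 fold change −0.31, SE 0.055, adjusted p = 0.00970). Both differences passed the adjusted p alone and not the 1.5-fold cutoff, and the second had an adjusted p of 0.0608 or 0.0798 without either DMSO + LPS replicate and 0.0679 without replicate 2 at 32 µM. All 6 libraries with **1** lay below both DMSO + LPS libraries and above both DMSO libraries in TMM-scaled CPM. On that scale 34.0% of the LPS-dependent difference was left at 32 µM, 62.8% at 10 µM and 74.6% at 3.2 µM. For 32 µM + LPS against DMSO the log2 fold change of Rac2 was 0.19, but −0.011 with scaling by library size alone. Against DMSO + LPS the log2 fold changes at 10 µM (−0.17, adjusted p = 0.242) and 3.2 µM (−0.11, adjusted p = 0.999) did not pass. With the score in the fit the first passed and the second did not (adjusted p = 0.00430 and 0.0981). Rac1, the form found in nearly all cells, had 318 and 319 CPM without LPS and 272 and 284 in DMSO + LPS, and among the doses 281 and 272 (3.2 µM), 292 and 268 (10 µM), and 272 and 269 (32 µM). It was 1.14-fold lower with LPS (log2 fold change −0.19, SE 0.052, adjusted p = 0.0143), below the fold cutoff, with an adjusted p of 0.0973 without replicate 1 of DMSO + LPS, 0.0571 without replicate 2 of DMSO and 0.0637 in edgeR's likelihood ratio test. Its log2 fold change at 32 µM was −0.038 (95% interval −0.16 to 0.082, adjusted p = 0.780). Daglb, which overlaps it on the other strand with 1300 to 4225 counts against 12119 to 18677 of Rac1, fell 2.25-fold with LPS (adjusted p = 5.72e-07), and its part in the Rac1 value was not tested. Per exon length, Rac2 stood at 2.26 and 2.25 times Rac1 without LPS and 3.70 and 3.60 in DMSO + LPS, and among the doses 3.32 and 3.47 (3.2 µM), 3.24 and 3.22 (10 µM), and 3.10 and 2.94 (32 µM). The ratio did not overlap between any 2 conditions.

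**Figure D4:**
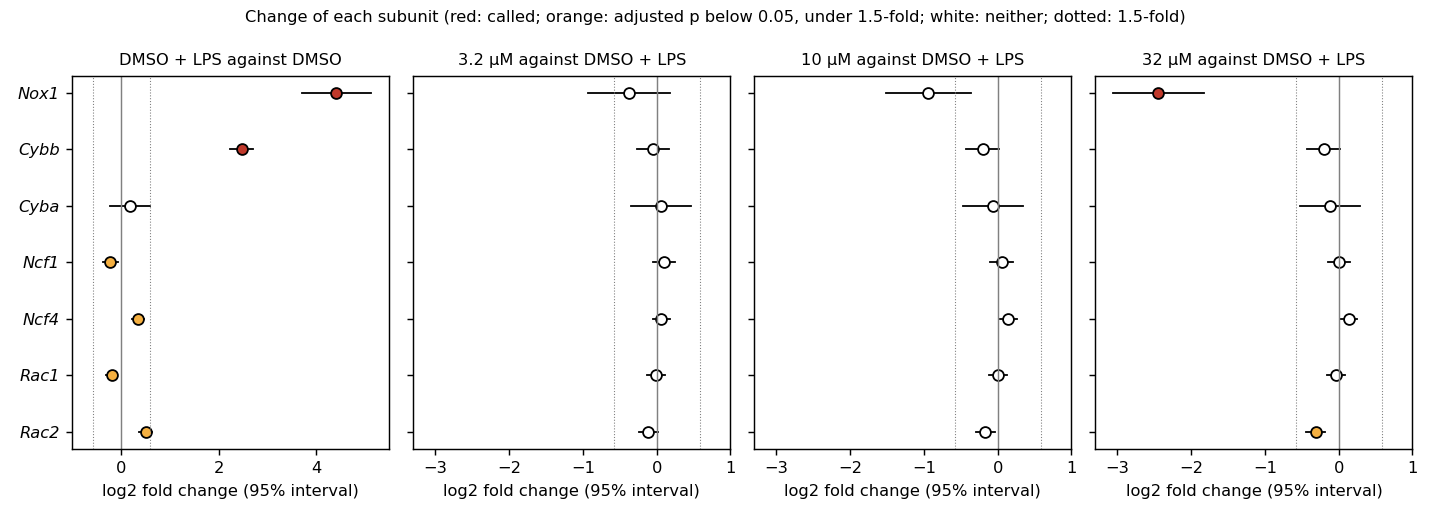
Log2 fold change of each subunit gene, with 95% intervals from edgeR's quasi-likelihood fit, for LPS against DMSO and for 3.2, 10 and 32 µM of **1** against DMSO + LPS, with red points for called genes and orange for an adjusted p below 0.05 under 1.5-fold. Nox1 (4.41) and Cybb (2.47) are red for LPS, and at 32 µM Nox1 alone is red (−2.45), with Rac2 orange (−0.31).

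Read against all genes, 2 of the 7 members were called with LPS, both higher, where 28.2% of all genes were called and 14.6% were called higher. Scaling by library size alone moved the median log2 fold change of all genes with LPS to −0.20 and the split of called genes from 2072 higher and 1923 lower to 1582 and 2938, and the direction of every member but Cyba was kept. At 32 µM against DMSO + LPS 1 of 7 was called, where 4.18% of all genes were called and 2.91% were called lower. None was called at 10 µM, where 0.861% of genes were, although 3 members had an unadjusted p below 0.05 in edgeR's quasi-likelihood test and DESeq2 called 1, Nox1. Without replicate 1 at 10 µM none was called either, and beside the value of Nox1 above the log2 fold changes were −0.10 for Cybb, −0.24 for Cyba, −0.055 for Ncf1, 0.082 for Ncf4, −0.052 for Rac1 and −0.23 for Rac2 (adjusted p from 0.121 to 0.742 in edgeR's quasi-likelihood test). At 3.2 µM no member was called by edgeR or DESeq2 or had an unadjusted p below 0.05, and edgeR's quasi-likelihood test called 0% of all genes. DESeq2 called 8 genes there, the likelihood ratio test 3, and the fit of the 4 libraries alone 56 (0.395%). Without replicate 1 at 3.2 µM the members' log2 fold changes lay between −0.35 (Nox1) and 0.076 (Ncf1), with no call. For 32 µM + LPS against DMSO 2 of 7 were called (27.1% of all genes), for 32 against 10 µM 1 of 7 (1.32%), and for 10 against 3.2 µM none (0.254%), with no unadjusted p below 0.05 and no call by DESeq2. On the adjusted p alone, 6 of 7 members passed with LPS against 50.9% of all genes, and 2 of 7 passed at 32 µM against 9.78%. For 32 µM + LPS against DMSO 6 of 7 passed, where 50.9% of all genes did. There Rac2 did not pass with scaling by library size alone (adjusted p = 0.897). Neither Rac2 nor Ncf1 passed there in edgeR's likelihood ratio test (adjusted p = 0.0963 and 0.0504). Both libraries of DMSO + LPS lay above both of DMSO for 4 members (38.2% of all genes) and below both for 2 (38.7%), and both libraries at 32 µM lay above both of DMSO + LPS for 1 member (25.7%) and below both for 3 (24.3%). The median log2 fold change of the members was 0.35 with LPS and −0.12 at 32 µM, beside medians over all genes of 0.0026 and 0.0082. The comparisons with DMSO + LPS share those 2 libraries.

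The order of the genes per exon length changed with LPS. In DMSO the mean RPKM was 350 ± 71 (SD, n = 2) for Cyba, 159 ± 0.28 for Rac2, 72.8 ± 1.0 for Ncf1, 70.8 ± 0.85 for Ncf4, 70.8 ± 0.17 for Rac1, 44.4 ± 3.8 for Cybb and 0.0702 ± 0.039 for Nox1. Ncf4 and Rac1 did not differ beyond their spread. In DMSO + LPS the order was Cyba (397 ± 16), Cybb (246 ± 16), Rac2 (226 ± 2.8), Ncf4 (90.0 ± 1.4), Ncf1 (62.4 ± 0.15), Rac1 (61.8 ± 1.9) and Nox1 (1.52 ± 0.11). There Ncf1 and Rac1 did not differ beyond their spread. Cybb moved from the sixth to the second place. With the length of the longest transcript in place of the merged exons, Ncf4 stood above Ncf1 in DMSO, and Cybb took the same places.

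Among 10 other subunits and maturation factors, 4 passed the count filter. Cybc1, a chaperone of the gp91phox and p22phox pair, was higher with LPS (log2 fold change 0.52, adjusted p = 2.41e-05), without reaching 1.5-fold, and had a log2 fold change of 0.13 at 32 µM (adjusted p = 0.128). The partners of NOX1 were scarce. Noxo1, its organizer, had 45 and 41 counts in DMSO, 21 and 8 in DMSO + LPS, and 6 to 19 in the libraries with **1**. It fell with LPS by 1.44 on the log2 scale (adjusted p = 0.0444), a call lost by DESeq2 (adjusted p = 0.0658) and without either DMSO replicate (0.122 and 0.107) or replicate 2 of DMSO + LPS (0.225). The log2 fold change was −2.11 without replicate 1 of DMSO + LPS and −1.02 without replicate 2. Noxa1, its activator, had 0 counts in 9 libraries and 5 in replicate 1 at 10 µM. A count of 0 allows up to 3 counts, or 0.0664 CPM in the smallest library, so Noxa1 was not detectable at this depth in those 9 libraries. Duoxa1 had 2 to 24 counts and did not pass the test with LPS or at 32 µM against DMSO + LPS. For 32 µM + LPS against DMSO all 4 tested genes of this list were called, 2 higher and 2 lower, beside 27.1% of all genes. Nox3, Nox4 and Duox1 had at most 3 counts in any library. Duox2 (33 counts) and Duoxa2 (4 counts) were highest in replicate 1 at 10 µM, with at most 4 and 0 counts elsewhere.

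Of 27 regulators of the assembled oxidase, 25 were tested. With LPS 2 rose and 3 fell, where 14.6% of all genes rose and 13.6% fell. The risers were S100a8 (log2 fold change 2.98, adjusted p = 4.39e-04), 1 chain of the calprotectin pair that delivers arachidonic acid to the enzyme, and Pik3r5 (1.40, adjusted p = 8.67e-08), the adaptor of phosphoinositide 3-kinase γ. Pak1, a Rac-activated kinase that phosphorylates p47phox, fell by 1.21 on the log2 scale (adjusted p = 1.59e-07), and Dock2, a blood-cell Rac exchange factor, fell by 0.76 (adjusted p = 3.22e-05). At 32 µM against DMSO + LPS 1 rose and 1 fell, where 1.27% of all genes rose and 2.91% fell. The voltage-gated proton channel Hvcn1, which carries out the protons that offset the oxidase's electron current, had 1.58 and 1.99 CPM without LPS and 1.96 and 2.24 in DMSO + LPS, and among the doses 2.72 and 2.67 (3.2 µM), 3.76 and 3.34 (10 µM), and 6.54 and 6.02 (32 µM). No dose overlapped another or DMSO + LPS. It rose 3.00-fold at 32 µM (log2 fold change 1.58, SE 0.15, adjusted p = 3.85e-04) and 1.70-fold at 10 µM (adjusted p = 0.0449), the second a call lost without any 1 of the 4 libraries compared (adjusted p from 0.0660 to 0.346). LPS itself gave a log2 fold change of 0.23 for Hvcn1 (adjusted p = 0.256). S100a8 had 6.44 and 6.26 CPM in DMSO + LPS and 2.39 and 1.39 at 32 µM. It fell 3.35-fold (adjusted p = 0.0257), a call lost without either DMSO + LPS replicate (adjusted p = 0.126 and 0.112) or replicate 2 at 32 µM (0.145). Its partner S100a9 had 16 counts in replicate 1 at 10 µM and 0 in the other 9 libraries. Over the list, log2 fold changes had a median of −0.071 with LPS and 0.029 at 32 µM.

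Of 16 transcription factors known to act on oxidase genes, 15 were tested, and with LPS 6 rose and 0 fell at the fold cutoff, beside 14.6% and 13.6% of all genes. Among them were Cebpb (log2 fold change 2.21, adjusted p = 1.77e-04), Nfkb1 (1.63, adjusted p = 1.68e-07) and Rel (1.42, adjusted p = 8.58e-05). On the adjusted p alone 12 passed with LPS, beside 50.9% of all genes. At 32 µM against DMSO + LPS 0 were called higher and 1 lower, beside 1.27% and 2.91% of all genes. On the adjusted p alone 2 were higher and 4 lower there, where 9.78% of all genes passed. Nfkb1, the p105/p50 subunit, was lower at 32 µM by 0.32 on the log2 scale (adjusted p = 0.00805), under the fold cutoff, and its adjusted p was 0.0744 without replicate 1 of DMSO + LPS and 0.0567 without replicate 1 at 32 µM. Over the list, log2 fold changes had a median of 0.35 with LPS and 0.0088 at 32 µM.

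Over the 10 libraries the genes whose log2 CPM was most like that of Nox1, of 11190 genes searched, were Phf11a (Pearson r = 0.994), 9130208D14Rik (0.994) and Uba7 (0.991), the enzyme that activates the ubiquitin-like protein ISG15. Uba7 had 37.3 and 35.2 CPM without LPS and 168 and 169 in DMSO + LPS, and among the doses 145 and 148 (3.2 µM), 126 and 116 (10 µM), and 71.8 and 68.0 (32 µM), the same order of conditions as Nox1. For Cybb the nearest were Nckap1 (0.999), Osgin2 (0.999) and Ppp1r10 (0.999), each lower in both DMSO libraries than in every library with LPS. These values describe 10 points that share 5 conditions, and for Cybb they rest mainly on the step between the DMSO and LPS libraries.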

How the data were processed

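The deposited table holds raw, unnormalized read counts for each Ensembl gene of the mouse in every library. Poly(A) RNA was made into stranded libraries and sequenced with paired 150-base reads on 1 lane. The submitters' processing notes name Trimmomatic, FastQC, STAR, DESeq2 and mm10; the counting tool, its use of strand and the annotation are not given in the sources used here. The members and gene lists were chosen with earlier results of these data known. Symbols (42462 of 43432 identifiers) and positions came from GENCODE M21. Genes kept by filterByExpr (minimum count 10; 14172 genes) were scaled by TMM and fitted in edgeR 4.0.16 (R 4.3.3) with 1 mean per condition, leaving 5 residual degrees of freedom (common BCV 0.128). Quasi-likelihood F tests gave 7 comparisons, with SE taken as the log2 fold change over the square root of F, and Benjamini-Hochberg adjustment over all genes. CPM refers to TMM-scaled totals, with no pseudocount. Totals of 45966803 to 58976377 counts set the precision, and limits from counts cover counting error only. The steps were tested on simulated data. Beside all members and other subunits, the 4 largest called changes per list for LPS and for 32 µM (mean of at least 1 CPM, groups separate) were named, with a few items not reported here, and the 3 genes most like Nox1 and Cybb. Replicates differed by more than counting noise. Alternatives included other scaling, filters and tests, DESeq2 1.42.0, and leaving out each library.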

Additional observations from a re-analysis of the deposited data

How the results depend on the processing

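In this small design 1 library of 2 can set a call. Nox1 and Cybb kept their direction and call with LPS, and Nox1 at 32 µM, under every alternative that tested them; a filter at a mean of 5 CPM leaves Nox1 out by construction. That filter lowered the count of called members to 1 with LPS, to 0 at 32 µM, to 1 for 32 µM + LPS against DMSO and to 0 for 32 against 10 µM. Without a fold cutoff the counts were 6 with LPS, 2 at 32 µM and 6 for 32 µM + LPS against DMSO, where 50.9%, 9.78% and 50.9% of all genes passed. At 10 µM the count became 1 (Nox1) without a count filter, with the short-transcript score, with the likelihood ratio test and with DESeq2, which called 0.742%, 1.60%, 1.28% and 1.27% of all genes, beside 0.861%. For 32 against 10 µM it was 0 in the 4 libraries alone and 0 to 1 when a library was left out; the cause was not tested. The fit with the replicate block changed no count of called members, which stayed at 2 with LPS, 1 at 32 µM and 0 at 10 µM. Differences between replicates 1 and 2 correlated at 0.104 to 0.573 in the 6 pairs of conditions without DMSO + LPS and at −0.169 to −0.0664 in the 4 pairs with it. Not every pair passed 0.1 and the labels name no shared culture or day, so the numbers were not taken to pair the libraries. Counts of the added lists were examined under the same alternatives after seeing the data. At 1.5-fold the regulators called numbered 4 to 8 with LPS, where 16.6% to 31.9% of all genes were called, and 0 to 2 at 32 µM, where 2.50% to 5.42% were. Without a fold cutoff they numbered 16 and 6, where 50.9% and 9.78% of all genes passed.

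Log2 fold changes that changed sign were small, and none was called. With the short-transcript score these were Cyba at −0.016 with LPS, −0.078 at 3.2 µM, −0.073 for 32 µM + LPS against DMSO and 0.084 for 32 against 10 µM, Rac1 at −0.00048 at 10 µM, Cybb at 0.017 at 3.2 µM and −0.070 for 32 against 10 µM, and Ncf4 at 0.017 for 32 against 10 µM. With library size alone they were Cyba at −0.026 with LPS and −0.14 for 32 µM + LPS against DMSO, Rac2 at −0.011 for 32 µM + LPS against DMSO and Cybb at −0.0075 for 32 against 10 µM. Ncf1 at 32 µM was −0.0020 with DESeq2 and with its size factors, −0.017 without a count filter, −0.0024 at 5 CPM and −0.0067 in the 4 libraries alone. Cybb for 32 against 10 µM was −0.0018 at 5 CPM, and Rac1 at 10 µM was −0.012 without a count filter.

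With 1 library left out (the single library that remains then takes its spread from the other conditions), the members that changed sign had these ranges of log2 fold change. With LPS this was Cyba from −0.013 to 0.41. At 32 µM this was Cyba from −0.33 to 0.063 and Ncf1 from −0.0088 to 0.012. At 10 µM this was Cyba from −0.24 to 0.081, Ncf1 from −0.055 to 0.13 and Rac1 from −0.052 to 0.049. At 3.2 µM this was Cybb from −0.12 to 0.016 and Rac1 from −0.038 to 0.025. For 32 µM + LPS against DMSO this was Cyba from −0.14 to 0.29. For 32 against 10 µM this was Cybb from −0.10 to 0.12, Cyba from −0.27 to 0.12, Ncf1 from −0.15 to 0.056, Ncf4 from −0.066 to 0.055 and Rac1 from −0.10 to 0.014. For 10 against 3.2 µM this was Cyba from −0.30 to 0.032, Ncf1 from −0.15 to 0.049, Rac1 from −0.045 to 0.067 and Rac2 from −0.12 to 0.00093.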

Other observations

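Replicate 1 at 10 µM also held 39 counts of Ly6g and 63 of Ltf, both neutrophil markers, 160 counts of Col3a1, a fibroblast collagen, and 16 counts of S100a9. Among the oxidase members, Nox1 was at 2.75 CPM there beside 2.48 CPM in the other library of that dose, and Cybb was at 1148 CPM beside 1331 CPM.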
